A study of Homo sapiens with 101 samples.

Results

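The 48 genes described here encode the machinery that copies DNA: the origin recognition complex (ORC1 to ORC6), the licensing factors CDC6 and CDT1 with the CDT1 inhibitor GMNN, the MCM2 to MCM7 helicase, the factors that switch it on (CDC45, GINS1 to GINS4, MCM10, CDC7 and DBF4), grouped here with WDHD1 as helicase activation, the polymerases alpha, delta and epsilon with the primase, the sliding clamp PCNA and its loader RFC1 to RFC5, the flap nuclease FEN1, the ligase LIG1, the single-strand binding protein RPA1 to RPA3, the histone chaperone CHAF1A and CHAF1B, and MCM8. They were chosen by name, with earlier results of these data known. Each gene was read from 1 probe set, the one with the highest mean over all arrays, out of 19774 genes with a probe set of their own. All 48 passed the filter that left 11496 genes for testing (a mean log2 signal of at least 4 in at least 1 group), and 47 were above that level in every group, the exception being CHAF1B in BRO (mean 3.84).

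The cells were HT1080, a human fibrosarcoma line with intact p53, profiled on 101 arrays of 100 samples in 17 groups. Each of 11 compounds was given in medium with serum at 1 dose, which the study picked for a 1.5-fold rise in total p53 protein, and added in DMSO at a final 0.1%; whether MMS_CTL held this vehicle is not said. Mitomycin C (MMC, 0.1 µM, a DNA crosslinker), neocarzinostatin (NCS, 10 ng/ml, a strand breaker), hydrogen peroxide (H2O2, 100 µM), ethylnitrosourea (ENU, 2 mM, an alkylating agent), tert-butylhydroquinone (tBHQ, 200 µM) and GAD (2 mM) were compared with DMSO_pooled. The link is inferred, because these 6 compounds have no control of their own name, and what was pooled is not said. BRO (600 µM) had BRO_DMSO, methyl methanesulfonate (MMS, 200 µM, an alkylating agent) had MMS_CTL, curcumin (CUR, 10 µM) had CUR_DMSO, etoposide (ETP, 0.3 µM, a topoisomerase II poison) had ETP_DMSO and quercetin (QUE, 30 µM) had QUE_DMSO. GAD and BRO are not spelled out in the labels. Groups had 6 samples, except MMC and H2O2 with 5. No exposure time was given, and the labels do not say whether replicates were separate cultures, so a p-value covers only the spread of these samples, which may be technical.

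Replication is prepared in G1, when ORC, CDC6 and CDT1 load MCM2 to MCM7 as an inactive ring around DNA. At S phase entry the kinase CDC7 with its activator DBF4, together with cyclin-dependent kinases, drives CDC45 and GINS onto that ring, which then unwinds DNA ahead of the polymerases, while PCNA, placed by RFC, tethers them to the template. Many of these genes are transcribed by E2F factors late in G1, and the p53 target CDKN1A, an inhibitor of cyclin-dependent kinases, is known to hold E2F genes off through the RB family. RNA from whole cultures was measured, so fewer cells in S phase and less RNA per cell cannot be told apart.

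Because E2F is the best known regulator of these genes, promoter windows of RefSeq (GRCh38.p14, 250 bases before to 50 after the transcript start) were searched for the letters TTTCGCGC, TTTGCCGC, TTTGGCGC and TTTCCCGC on both strands. A window was found for 42 of the 48 genes, and 20 of these 42 (47.6%) held a match, against 3.99% of all 27305 genes with a window. The 4 genes of the MCM ring with a window (MCM2, MCM3, MCM6 and MCM7) all held one. So did CDC6, CDT1 and GMNN, 4 of 8 helicase activation genes and 4 of 9 polymerase genes. Only 1 of 6 origin recognition genes (ORC3), 2 of 6 clamp and loader genes (PCNA and RFC3), and neither RPA1 nor the 2 CHAF1 genes held one. The 200 bases before the start are shown for 6 genes the results turn on that hold a match there, and for ORC6 and RPA1, which hold none. Capitals mark the matched letters in either direction, and in MCM6 and MCM7 there is more than 1 match; the 2 runs of MCM6 are each a pair of overlapping matches.
MCM6 (chr2:135876444-135876643, minus strand): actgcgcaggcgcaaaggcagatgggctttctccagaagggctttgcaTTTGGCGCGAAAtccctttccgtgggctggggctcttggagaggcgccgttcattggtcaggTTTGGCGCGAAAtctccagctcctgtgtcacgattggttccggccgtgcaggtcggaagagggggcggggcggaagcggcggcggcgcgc
MCM3 (chr6:52284743-52284942, minus strand): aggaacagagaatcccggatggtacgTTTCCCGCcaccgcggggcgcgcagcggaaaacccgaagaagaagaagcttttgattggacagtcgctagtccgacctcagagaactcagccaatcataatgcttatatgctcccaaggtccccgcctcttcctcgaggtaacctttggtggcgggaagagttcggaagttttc
MCM7 (chr7:100101398-100101597, minus strand): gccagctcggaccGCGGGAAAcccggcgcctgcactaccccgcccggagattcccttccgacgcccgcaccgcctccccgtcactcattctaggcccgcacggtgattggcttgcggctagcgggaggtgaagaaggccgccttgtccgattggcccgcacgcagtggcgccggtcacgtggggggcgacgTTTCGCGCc
GINS2 (chr16:85688955-85689154, minus strand): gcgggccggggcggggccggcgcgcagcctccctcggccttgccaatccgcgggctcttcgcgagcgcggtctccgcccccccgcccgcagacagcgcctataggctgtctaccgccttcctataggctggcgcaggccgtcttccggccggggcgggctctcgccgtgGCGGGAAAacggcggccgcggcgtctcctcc
POLA1 (chrX:24693718-24693917, plus strand): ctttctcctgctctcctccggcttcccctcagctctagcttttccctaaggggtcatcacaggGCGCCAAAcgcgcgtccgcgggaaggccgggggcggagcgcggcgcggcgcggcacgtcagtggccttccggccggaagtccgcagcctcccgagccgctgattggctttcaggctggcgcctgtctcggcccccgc
PCNA (chr20:5126623-5126822, minus strand): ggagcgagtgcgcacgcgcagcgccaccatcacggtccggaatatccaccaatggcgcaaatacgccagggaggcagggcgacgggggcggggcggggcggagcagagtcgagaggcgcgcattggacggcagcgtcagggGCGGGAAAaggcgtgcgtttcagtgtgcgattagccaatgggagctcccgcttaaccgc
ORC6 (chr16:46689459-46689658, plus strand): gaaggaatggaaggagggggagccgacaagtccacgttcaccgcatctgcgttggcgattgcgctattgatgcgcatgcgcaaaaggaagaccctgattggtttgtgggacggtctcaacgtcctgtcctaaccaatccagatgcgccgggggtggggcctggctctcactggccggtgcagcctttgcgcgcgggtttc
RPA1 (chr17:1829805-1830004, plus strand): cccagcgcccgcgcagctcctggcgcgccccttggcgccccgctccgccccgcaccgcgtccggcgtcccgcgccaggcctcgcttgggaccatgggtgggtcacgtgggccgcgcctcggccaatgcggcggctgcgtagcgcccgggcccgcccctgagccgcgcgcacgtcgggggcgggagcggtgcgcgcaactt

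**Figure D1:**
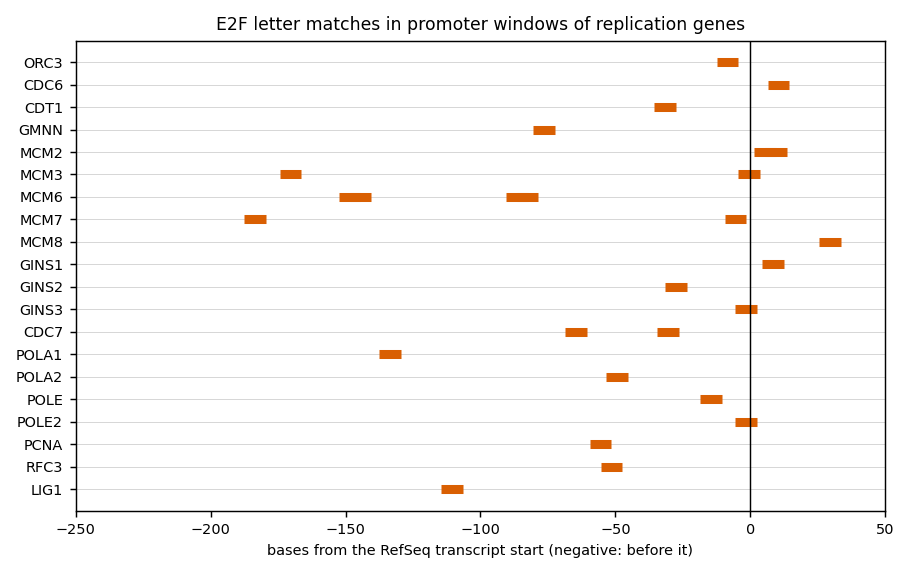
Position of each E2F letter match, in bases from the RefSeq transcript start, in the promoter windows of the 20 replication genes that hold one; each bar is 1 match of 8 bases and the vertical line is the start. The 4 matches of MCM6 fall in 2 overlapping pairs before the start, and 14 of the 42 genes with a window hold a match before it.

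Other letters were counted in the same windows. A CCAAT box was present in 23 of 42 (54.8%, against 39.72% of all genes), the cell cycle homology region (TTTGAA or TTCGAA) in 3 of 42 (7.1%, against 19.54%) and a p53 half-site by its usual consensus in 5 of 42 (11.9%, against 8.06%). A match is a stretch of letters, not a measured binding site. Members with and without the E2F letters had median log2 fold changes, respectively, of -0.74 and -0.63 in NCS, -0.52 and -0.35 in tBHQ, -0.39 and -0.31 in H2O2, -0.33 and -0.25 in BRO, -0.25 and -0.19 in QUE, -0.13 and -0.07 in ENU and 0.68 and 0.47 in MMS. The medians were -0.23 and -0.27 in ETP, 0.04 and 0.14 in CUR, 0.00 and 0.05 in GAD, and 0.02 and -0.0019 in MMC. No test between members with and without the letters was made.

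Across the 528 gene-compound comparisons, 77 were called lower (14.6%) and 24 higher (4.55%) than the control (limma, adjusted p under 0.05 and at least 1.5-fold). By compound, the share of all genes called lower ran from 0% in MMC to 15% in GAD. The share called higher ran from 0.165% in MMC to 11.1% in GAD. Both shares of the members lay within these ranges, so members are set against all genes by compound below. Fold changes below are log2 values with their SE. The falls were concentrated in the MCM ring: MCM2 to MCM7 took 34 of the 77 lower calls and none of the 24 higher ones. The rises were nearly all in 1 compound, MMS, which had 20 of the 24. Over all compounds 27 of the 48 genes were lower in at least 1, 20 were higher in at least 1, 8 were both, and 9 were never called (ORC3, ORC4, DBF4, POLE, POLE3, RFC1, RPA1, RPA2 and RPA3). Such counts over compounds were not made for all genes, so they have no share to be read against. MCM5 was called in the most compounds, 8, followed by MCM6 and POLA1 in 7 each. Of the 11 compounds 6 share DMSO_pooled, so their calls are not independent of one another.

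**Figure D2:**
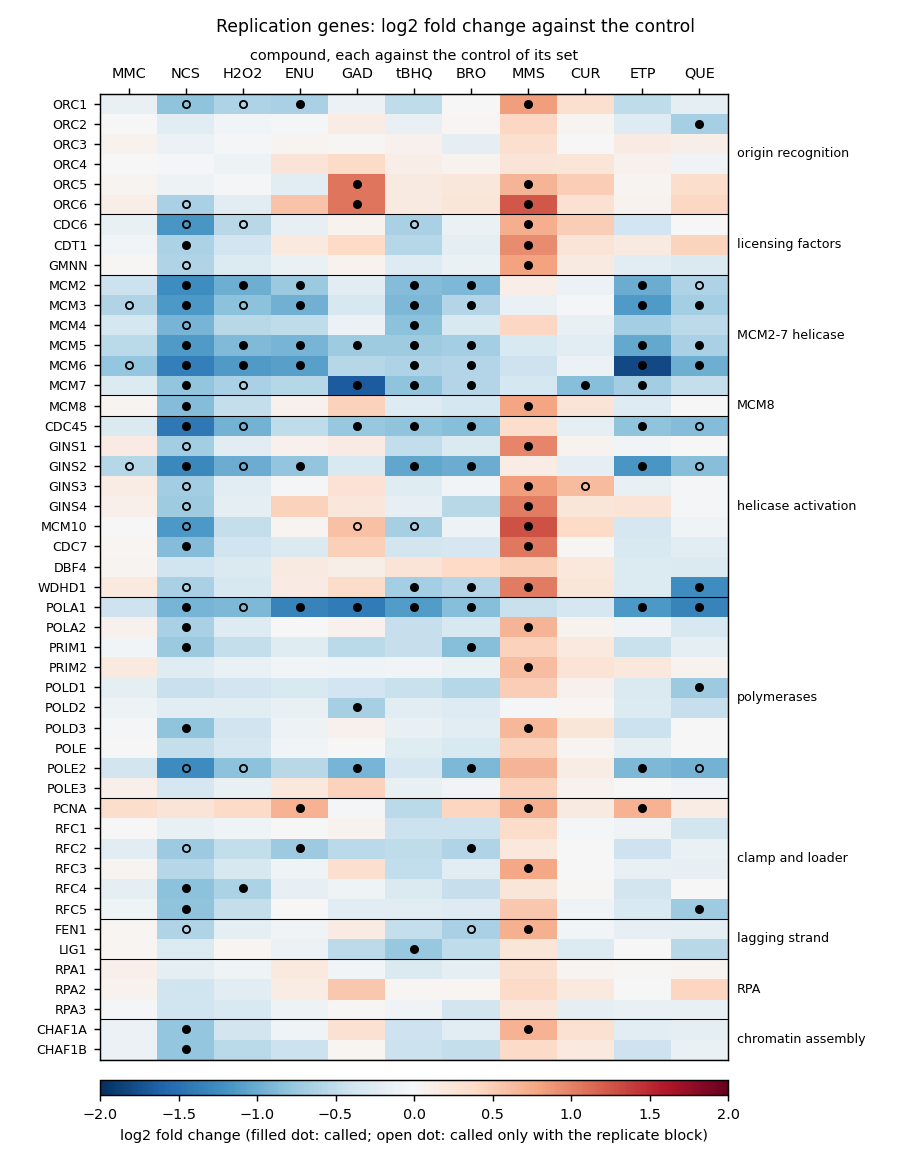
Log2 fold change of each of the 48 replication genes (rows, by class) in each of 11 compounds (columns) against the control of its set, blue lower and red higher; a filled dot marks a call and an open dot a call made only with the replicate number as a block. The MCM2 to MCM7 rows are blue in nearly every column, the MMS column is mostly red with 20 filled dots, and the MMC column has no filled dot.

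In the pooled set, MMC had no member called lower or higher (0% and 0.165% of all genes were), with 6 lower and 1 higher at an unadjusted p under 0.05 by limma and a median log2 fold change of -0.0019, which ran from -0.10 to 0.03 with 1 library left out. NCS had 18 members lower (37.5%, against 0.966% of all genes) and none higher (against 1.48%, and none at an unadjusted p under 0.05), with a median of -0.70 beside 0.02 over all genes tested. In H2O2, 4 were lower (8.33%, against 0.165%) and none higher (against 0.765%, with 1 at an unadjusted p under 0.05), with a median of -0.36. These 3 counts moved with single libraries. The count for MMC was 2 without MMC replicate 1. For NCS it was 9 without any 1 of NCS replicates 3, 5 and 6 and DMSO_pooled replicates 1 and 2, 10 without any 1 of DMSO_pooled replicates 4 and 5, 11 without NCS replicate 4, and 33 without NCS replicate 1. For H2O2 it was 1 without any 1 of H2O2 replicates 3, 5 and 6 and DMSO_pooled replicates 2, 4, 5 and 6, 2 without any 1 of H2O2 replicate 2 and DMSO_pooled replicate 1, and 10 without H2O2 replicate 1. Samples of the same number deviated together in this set. With the number as a block, a fit that compares each sample within its number, the counts became 3 lower in MMC (against 0.0957% of all genes), 31 in NCS (against 1.80%) and 12 in H2O2 (against 0.670%). The 3 genes called in MMC with the block were MCM6 at -0.82 (adjusted p = 0.00331), GINS2 at -0.64 (adjusted p = 0.0164) and MCM3 at -0.64 (adjusted p = 0.00568).

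ENU had 8 members lower (16.7%, against 6.11% of all genes) and 1 higher, PCNA (2.08%, against 4.77%). GAD had 6 lower (12.5%, against 15%) and 2 higher, ORC5 and ORC6 (4.17%, against 11.1%). Both shares in GAD were under those of all genes. In tBHQ 11 members were lower (22.9%, against 4.44%) and none higher (against 5.39%, and none at an unadjusted p under 0.05 by limma). Median log2 fold changes of the 48 genes were -0.09 in ENU, 0.03 in GAD and -0.43 in tBHQ. The sign of the first 2 rested on single libraries: the ENU median was 0.0038 without DMSO_pooled replicate 1, and the GAD median was -0.0090 without DMSO_pooled replicate 3 and -0.0072 without replicate 6. Single libraries moved some counts: the higher count in ENU was 2 without any 1 of ENU replicates 3, 4 and 6 and DMSO_pooled replicate 2 and 3 without DMSO_pooled replicate 1, the higher count in GAD was 4 without DMSO_pooled replicate 1, and the lower count in tBHQ was 19 without tBHQ replicate 1.

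Against their own controls, BRO had 12 members lower (25%, against 4.93% of all genes) and none higher (against 2.46%, with 3 at an unadjusted p under 0.05), and CUR had only MCM7 lower (2.08%, against 0.931%) and none higher (against 1.27%, with 1 at an unadjusted p under 0.05). MMS went the other way, with 20 members higher (41.7%, against 4.46%) and none lower (against 6.56%, with 4 at an unadjusted p under 0.05). ETP had 9 lower (18.8%, against 0.618%) and 1 higher, PCNA (2.08%, against 2.06%), and QUE had 8 lower (16.7%, against 6.65%) and none higher (against 6.38%, and none at an unadjusted p under 0.05). The medians were -0.30 in BRO, 0.07 in CUR, 0.47 in MMS, -0.26 in ETP and -0.19 in QUE. The QUE median was 0.05 without QUE replicate 2 and 0.18 without QUE replicates 2 and 3, and the CUR median was -0.02 without CUR_DMSO replicate 5, so neither sign held throughout. The BRO count was 6 without any 1 of BRO replicates 2 and 3 and BRO_DMSO replicates 1, 4 and 6 and 7 without BRO replicate 5, and with the average over a gene's probe sets or an equal median for each array it was 7. Leaving out CUR replicate 5 gave 2 higher calls in CUR, and the block gave 1, GINS3. The ETP count was 3 without any 1 of ETP replicate 5 and ETP_DMSO replicate 6, 4 without any 1 of ETP replicate 6 and ETP_DMSO replicates 1 and 5, and 5 without any 1 of ETP replicates 3 and 4 and ETP_DMSO replicates 3 and 4, and 15 without the number 2 libraries of ETP and ETP_DMSO. The lower count in QUE was 4 without QUE replicate 3 and 13 without QUE replicate 1, and the higher count was 3 without QUE replicate 2. QUE replicates 2 and 3 had low member signals, and without both of them QUE had 3 members lower and 3 higher.

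Signals of different probe sets cannot be set against each other, so genes are compared by their fold changes. MCM6, a subunit of the hexamer ring, had the largest fall of any member in any compound. Its log2 signal was between 10.06 and 10.96 (median 10.50) in ETP_DMSO and between 8.04 and 9.99 (median 8.56) in ETP. All 6 ETP samples lay below every control, with no overlap. The log2 fold change was -1.81 ± 0.29 (SE, adjusted p = 0.00305). In DMSO_pooled its signal was between 9.93 and 10.49 (median 10.06), and in NCS between 8.10 and 9.98 (median 8.45), a log2 fold change of -1.37 ± 0.28 (SE, adjusted p = 0.0122). 5 of the 6 NCS samples lay below every control and the groups overlapped. In ENU it was between 8.67 and 9.43 (median 9.05), a log2 fold change of -1.09 ± 0.13 (SE, adjusted p = 3.97e-05). All 6 ENU samples lay below every control, with no overlap. The 5 H2O2 samples read 9.94, 9.25, 8.94, 8.30 and 8.58, for -1.13 ± 0.24 (SE, adjusted p = 0.0378), and 4 of the 5 H2O2 samples lay below every control and the groups overlapped. QUE samples lay between 8.79 and 10.12 (median 9.62) against 10.25 to 10.82 (median 10.42) in QUE_DMSO, for -0.97 ± 0.22 (SE, adjusted p = 0.00725), and all 6 QUE samples lay below every control, with no overlap. The falls in tBHQ (-0.62) and BRO (-0.59) also passed, both close to the 1.5-fold limit.

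The 4 compounds in which MCM6 was not called still had it below the control on average. The 5 MMC samples read 9.88, 9.47, 9.08, 9.11 and 9.22, for -0.78 ± 0.15 (SE, adjusted p = 0.0684), and all 5 MMC samples lay below every control, with no overlap. GAD samples lay between 9.43 and 9.71 (median 9.57), for -0.58 ± 0.10 (SE, adjusted p = 2.28e-04), which passed the adjusted p but stayed just under 1.5-fold. In MMS the signal was between 8.69 and 9.16 (median 9.04) against 9.17 to 9.71 (median 9.42) in MMS_CTL, for -0.42 ± 0.11 (SE, adjusted p = 0.00809). CUR samples were between 8.99 and 9.91 (median 9.71) and CUR_DMSO samples between 9.17 and 10.01 (median 9.82), a difference of -0.12 ± 0.17 (SE, adjusted p = 0.679) that was well within their spread. Calls of MCM6 that did not hold without every single library were those of H2O2, tBHQ and BRO. They were lost, respectively, without any 1 of H2O2 replicates 2, 3, 5 and 6 and DMSO_pooled replicates 1, 2, 3, 4, 5 and 6, without any 1 of tBHQ replicates 3, 5 and 6 and DMSO_pooled replicates 1 and 2, and without any 1 of BRO replicates 2 and 3 and BRO_DMSO replicates 1, 4 and 6. The same 3 calls were lost with the mean of its probe sets. The other MCM6 probe set averaged under 4, the level of the filter, in those comparisons.

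MCM5, another subunit of the ring, was called in the most compounds. Log2 fold changes of MCM5 that passed ran from -1.14 in NCS to -0.64 in QUE, through -1.02 in ETP, -0.94 in ENU, -0.89 in H2O2, -0.72 and -0.72 in GAD and tBHQ, and -0.67 in BRO. MCM3 passed in 6 compounds, from -1.15 in NCS to -0.59 in BRO, and MCM2 in 6, from -1.24 in NCS to -0.74 in ENU. MCM4 passed only in tBHQ (-0.82 ± 0.22 SE, adjusted p = 0.0111), and not in NCS (-0.93) or ETP (-0.68). With the block MCM4 passed in NCS as well. MCM7 had its lowest value in GAD, where the other 5 subunits had log2 fold changes between -0.72 and -0.12. Its signal there was between 6.93 and 7.52 (median 7.36), against 8.83 to 9.21 (median 8.94) in DMSO_pooled, and all 6 GAD samples lay below every control, with no overlap. That was a log2 fold change of -1.67 ± 0.10 (SE, adjusted p = 5.11e-08). In CUR, MCM7 was between 7.49 and 8.08 (median 8.05) against 8.58 to 8.96 (median 8.83), and all 6 CUR samples lay below every control, with no overlap. It was the 1 member called in CUR, at -0.85 ± 0.11 (SE, adjusted p = 0.00156), while the other 5 subunits were between -0.22 and -0.03.

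Origin recognition genes, whose product marks the sites where helicases are loaded, had 2 lower and 5 higher calls in 66 comparisons. With the block, ORC1 (-0.81) and ORC6 (-0.65) were also called lower in NCS, and ORC1 in H2O2. ORC6, a subunit of the complex, was between 7.52 and 8.39 (median 7.63) in DMSO_pooled and between 8.74 and 9.12 (median 8.96) in GAD. All 6 GAD samples lay above every control, with no overlap, for a log2 fold change of 1.07 ± 0.16 (SE, adjusted p = 4.63e-05). MMS samples of ORC6 lay between 8.43 and 8.82 (median 8.63), against 6.68 to 7.80 (median 7.41) in MMS_CTL. There all 6 MMS samples lay above every control, with no overlap, with a rise of 1.25 ± 0.16 (SE, adjusted p = 5.76e-05). ORC5, the other subunit raised in both compounds, was between 8.08 and 8.64 (median 8.13) in DMSO_pooled and between 9.11 and 9.50 (median 9.33) in GAD, and all 6 GAD samples lay above every control, with no overlap. Its log2 fold changes were 1.07 ± 0.10 (SE, adjusted p = 1.25e-06) in GAD and 0.68 ± 0.12 (SE, adjusted p = 6.91e-04) in MMS. ORC1, the subunit whose level is known to follow the cell cycle, was between 4.08 and 5.64 (median 4.92) in MMS_CTL and between 5.44 and 5.89 (median 5.70) in MMS, for 0.84 ± 0.21 (SE, adjusted p = 0.00818), and 3 of the 6 MMS samples lay above every control and the groups overlapped. It was between 4.87 and 5.80 (median 5.27) in DMSO_pooled and between 4.14 and 5.33 (median 4.56) in ENU, for -0.64 ± 0.21 (SE, adjusted p = 0.0290), and 4 of the 6 ENU samples lay below every control and the groups overlapped. That call was lost without any 1 of ENU replicates 3, 4 and 6 and DMSO_pooled replicates 1, 2 and 4, and in 1 fit of all groups. ORC2 was lower in QUE (-0.67), a call lost without QUE replicate 3 and with the mean of its probe sets. ORC3 and ORC4 stayed between -0.17 and 0.39. Another ORC4 probe set, not tested by itself, ran from -0.16 in ETP to 0.66 in GAD.

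The licensing factors, with the inhibitor GMNN counted among them, were all called higher in MMS and had 1 lower call elsewhere. CDC6, the ATPase that brings the helicase to ORC, was between 5.71 and 7.17 (median 6.80) in MMS_CTL and between 7.04 and 7.70 (median 7.40) in MMS, for 0.73 ± 0.21 (SE, adjusted p = 0.0180), and 4 of the 6 MMS samples lay above every control and the groups overlapped. That call was lost without MMS_CTL replicate 3 and in 1 fit of all groups. CDT1, the loader, rose by 0.94 ± 0.09 (SE, adjusted p = 4.48e-06), and GMNN, its inhibitor, by 0.80 ± 0.15 (SE, adjusted p = 0.00158). In NCS, CDT1 was called lower at -0.63 ± 0.16 (SE, adjusted p = 0.0279), a call lost with the mean of its probe sets and without any 1 of NCS replicates 3, 5 and 6 and DMSO_pooled replicates 1, 2, 4 and 5. The other CDT1 probe set averaged 3.75 over NCS and DMSO_pooled, under the filter level of 4. The NCS values of CDC6 (-1.16 ± 0.38 SE, adjusted p = 0.0807) and GMNN (-0.59 ± 0.28 SE, adjusted p = 0.207) did not pass without the block and passed with it, at adjusted p of 0.00152 and 0.00115. In ENU, GAD, BRO, ETP and QUE the 3 genes were between -0.39 and 0.44 on the log2 scale and none passed. The 3 lay between -0.64 and -0.26 in tBHQ and between -0.56 and -0.27 in H2O2. None passed there without the block, and CDC6 passed with it in both.

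Among the 9 genes grouped as helicase activation, CDC45 and GINS2 were called lower in 5 compounds each, WDHD1 in 3, CDC7 in 1 and the other 5 in none. CDC45, which binds the ring to form the active helicase, was between 5.27 and 7.33 (median 5.86) in NCS against 7.20 to 8.01 (median 7.50) in DMSO_pooled. There 5 of the 6 NCS samples lay below every control and the groups overlapped, with a log2 fold change of -1.44 ± 0.31 (SE, adjusted p = 0.0154), the lowest of any member in that compound. It also passed in BRO (-0.86), tBHQ and ETP (-0.81 in each), and GAD (-0.75). GINS2, a subunit of the GINS tetramer, was between 8.30 and 9.31 (median 8.51) in DMSO_pooled and between 7.03 and 8.58 (median 7.51) in tBHQ. In tBHQ 5 of the 6 tBHQ samples lay below every control and the groups overlapped, and the log2 fold change was -1.03 ± 0.27 (SE, adjusted p = 0.0109). NCS samples of GINS2 were between 6.66 and 8.72 (median 6.99), for -1.28 ± 0.36 (SE, adjusted p = 0.0475), and 4 of the 6 NCS samples lay below every control and the groups overlapped. In BRO it was between 6.16 and 7.47 (median 6.98) against 7.36 to 8.50 (median 7.86) in BRO_DMSO, for -0.99 ± 0.23 (SE, adjusted p = 0.00616), and 5 of the 6 BRO samples lay below every control and the groups overlapped. It further passed in ETP (-1.16) and ENU (-0.79). The 4 GINS proteins form 1 complex, yet GINS1, GINS3 and GINS4 were called lower only with the block. That was in NCS, at -0.70, -0.70 and -0.71. In ENU they were at 0.09, -0.02 and 0.47, and in ETP at -0.05, -0.15 and 0.27. Whether GINS2 differed from the other 3 was not tested. The GINS2 calls of ENU, tBHQ, BRO and ETP were lost with the mean of its probe sets. Its other probe sets averaged under 4, the level of the filter, in every comparison.

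The same 3 GINS genes were raised in MMS, GINS4 by 1.03 ± 0.20 (SE, adjusted p = 0.00176), GINS1 by 0.98 ± 0.16 (SE, adjusted p = 4.36e-04) and GINS3 by 0.83 ± 0.18 (SE, adjusted p = 0.00292), while GINS2 was at 0.15 ± 0.17 (SE, adjusted p = 0.505). MCM10, which acts when the helicase starts to move, had the largest rise of any member. Its signal was between 5.14 and 7.35 (median 6.67) in MMS_CTL and between 7.49 and 8.05 (median 7.79) in MMS. All 6 MMS samples lay above every control, with no overlap, for 1.27 ± 0.28 (SE, adjusted p = 0.00374). In NCS it was between 5.55 and 7.67 (median 5.69) against 6.51 to 8.31 (median 7.21) in DMSO_pooled, a value of -1.14 ± 0.43 (SE, adjusted p = 0.124) that passed only with the block. CDC7, the kinase that triggers the ring, rose in MMS by 1.05 ± 0.18 (SE, adjusted p = 6.35e-04) and was called lower in NCS at -0.86 ± 0.23 (SE, adjusted p = 0.0357). Its activator DBF4 was never called, with values from -0.41 to 0.47. WDHD1, which links the helicase to polymerase alpha, was between 5.19 and 6.13 (median 6.0) in MMS_CTL and between 6.71 and 6.99 (median 6.86) in MMS, for 1.04 ± 0.15 (SE, adjusted p = 1.64e-04). It was between 6.14 and 6.79 (median 6.57) in QUE_DMSO and between 4.01 and 5.75 (median 5.47) in QUE, for -1.25 ± 0.26 (SE, adjusted p = 0.00491), and all 6 QUE samples lay below every control, with no overlap. The lowest of those was QUE replicate 3.

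**Figure D3:**
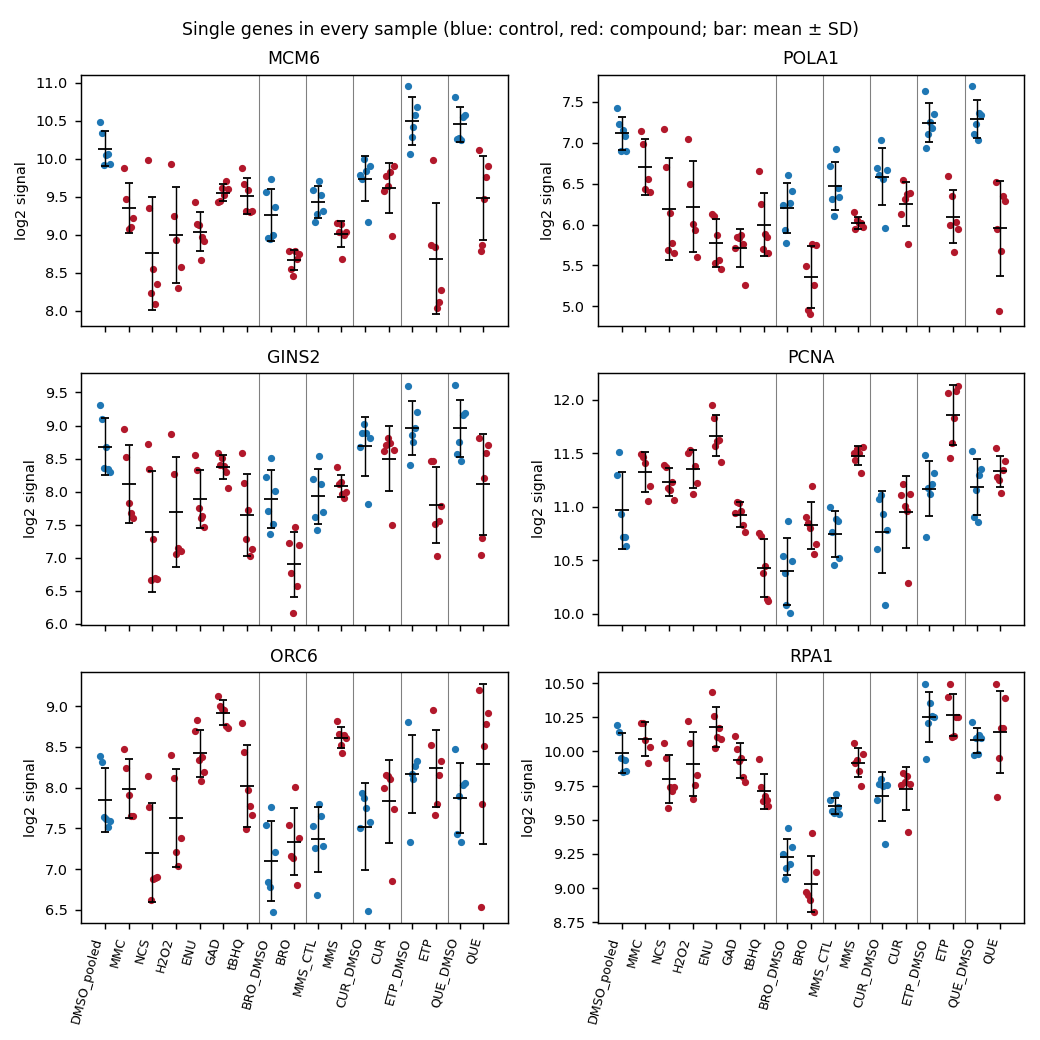
Log2 signal of MCM6, POLA1, GINS2, PCNA, ORC6 and RPA1 in every sample (vertical axis; controls blue, compounds red) for the 17 groups, with grey lines between sets, and mean ± SD as black bars. MCM6, POLA1 and GINS2 sit lower than their control in most compounds, PCNA sits higher in ENU, MMS and ETP, ORC6 in GAD and MMS, and RPA1 has no call.

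POLA1, the catalytic subunit of polymerase alpha that starts each new strand, fell in 7 compounds, and its median over the 11 (-0.93) was the lowest of all members. It was between 6.89 and 7.43 (median 7.12) in DMSO_pooled. In GAD it was between 5.26 and 5.87 (median 5.79), for -1.40 ± 0.12 (SE, adjusted p = 4.61e-07), and in ENU between 5.45 and 6.13 (median 5.72), for -1.34 ± 0.14 (SE, adjusted p = 1.17e-05). Neither group overlapped with the controls. In QUE it was between 4.94 and 6.52 (median 6.12) against 7.04 to 7.70 (median 7.29) in QUE_DMSO, for -1.34 ± 0.23 (SE, adjusted p = 0.00249), and all 6 QUE samples lay below every control, with no overlap. In ETP it was between 5.66 and 6.59 (median 6.01) against 6.94 to 7.64 (median 7.22) in ETP_DMSO, for -1.15 ± 0.15 (SE, adjusted p = 8.45e-04), and all 6 ETP samples lay below every control, with no overlap. The falls in tBHQ (-1.12), NCS (-0.93) and BRO (-0.85) passed as well. Its log2 fold change was -0.45 ± 0.12 (SE, adjusted p = 0.00968) in MMS and -0.34 ± 0.17 (SE, adjusted p = 0.232) in CUR. Its NCS call was lost without any 1 of NCS replicates 3, 4, 5 and 6 and DMSO_pooled replicates 1, 2, 4 and 5.

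The other 9 polymerase genes had 9 lower calls together. POLE2, the second subunit of polymerase epsilon, passed in GAD (-0.93 ± 0.22 SE, adjusted p = 0.00239), BRO (-0.89 ± 0.31 SE, adjusted p = 0.0402) and ETP (-0.90 ± 0.24 SE, adjusted p = 0.0435). Its lowest value, -1.26 in NCS, passed only with the block. The BRO and ETP calls of POLE2 were each lost with single libraries and with no filter. POLA2, the second subunit of polymerase alpha, was lower in NCS (-0.65) and higher in MMS (0.68), and the delta subunit POLD3 did the same (-0.81 and 0.66). These 4 calls were lost with the mean of the probe sets. The other probe set of each gene averaged under 4, the level of the filter. PRIM1, the catalytic primase subunit, was lower in BRO (-0.85) and NCS (-0.74), and PRIM2, the large subunit, was higher in MMS (0.62). The catalytic delta subunit POLD1 was lower in QUE (-0.73), and the delta subunit POLD2 in GAD (-0.66). The POLD1 and PRIM2 calls were lost without QUE replicate 3 and without MMS_CTL replicate 3, respectively, and PRIM2 also without MMS replicate 1. The catalytic epsilon subunit POLE stayed between -0.47 and 0.46 and the small subunit POLE3 between -0.33 and 0.46.

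PCNA, the sliding clamp, was called higher in 3 compounds. It was between 10.63 and 11.51 (median 10.83) in DMSO_pooled and between 11.42 and 11.95 (median 11.62) in ENU, for 0.70 ± 0.15 (SE, adjusted p = 0.00309), and 5 of the 6 ENU samples lay above every control and the groups overlapped. In MMS it was between 11.32 and 11.56 (median 11.51) against 10.46 to 10.998 (median 10.81), for 0.73 ± 0.09 (SE, adjusted p = 8.05e-05), and all 6 MMS samples lay above every control, with no overlap. The clamp was also higher in ETP, between 11.46 and 12.13 (median 11.95) against 10.72 to 11.49 (median 11.20), for 0.69 ± 0.15 (SE, adjusted p = 0.0173), and 5 of the 6 ETP samples lay above every control and the groups overlapped. In ENU and ETP, 4 and 5 of the 6 ring genes were called lower. In tBHQ it was between 10.12 and 10.76 (median 10.42), for -0.54 ± 0.17 (SE, adjusted p = 0.0253), which stayed under 1.5-fold. Its values in the other compounds lay between -0.04 in GAD and 0.43 in BRO, and its median over the 11 (0.35) was the highest of all members. The p53 target CDKN1A was higher in ENU (0.81), MMS (1.10) and ETP (1.32), and also where PCNA was not called, as in GAD (1.36).

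Among the 5 loader genes, RFC2, RFC4 and RFC5 were called lower in 2 compounds each. The loader and PCNA together were called lower in 9.09% of 66 comparisons (0% to 15% of all genes by compound). RFC2 was lower in ENU (-0.73 ± 0.19 SE, adjusted p = 0.00867) and BRO (-0.60), RFC4 in NCS (-0.83 ± 0.12 SE, adjusted p = 0.00173) and H2O2 (-0.63), and RFC5 in NCS (-0.80) and QUE (-0.71 ± 0.17 SE, adjusted p = 0.00893). RFC3 was higher in MMS (0.78 ± 0.16 SE, adjusted p = 0.00259), and RFC1, the large subunit, was never called. On the lagging strand, FEN1, which trims the flaps of Okazaki fragments, was higher in MMS (0.70 ± 0.15 SE, adjusted p = 0.00324), and LIG1, which seals them, was lower in tBHQ (-0.76 ± 0.10 SE, adjusted p = 8.29e-05). RPA1, RPA2 and RPA3, which coat unwound single strands, had no call in 33 comparisons, with 5 lower and 5 higher at an unadjusted p under 0.05 by limma and log2 fold changes from -0.40 to 0.54. RPA1 in particular lay between -0.28 and 0.32. CHAF1A and CHAF1B, which place histones on the new strands, were lower in NCS (-0.78 ± 0.22 SE, adjusted p = 0.0487 and -0.77 ± 0.21 SE, adjusted p = 0.0427), and CHAF1A was higher in MMS (0.70). Both NCS calls were lost with no filter and without most single libraries. MCM8, a relative of the ring that works in recombination, was lower in NCS (-0.86 ± 0.23 SE, adjusted p = 0.0365) and higher in MMS (0.79 ± 0.17 SE, adjusted p = 0.00325). Both MCM8 calls were lost with the mean of its probe sets, of which the other averaged under 4, the level of the filter.

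By class, the ring was lower in 51.5% of its 66 comparisons. The share was 14.5% of 110 for the polymerases, 14.1% of 99 for helicase activation, 9.09% of 66 for clamp and loader, 3.03% of 33 for the licensing factors and 3.03% of 66 for origin recognition. Among all genes tested the share called lower ran, by compound, from 0% in MMC to 15% in GAD. Of the class shares given, only that of the ring lay above this range. POLA1 supplied 7 of the 16 lower calls among the polymerases, and CDC45 and GINS2 supplied 10 of the 14 in helicase activation. Within licensing the medians of the ring, of the licensing factors and of ORC lay apart. In ETP the median was -1.01 for the ring, -0.22 for CDC6, CDT1 and GMNN, and 0.06 for ORC. In ENU these medians were -0.84, -0.13 and 0.02, and in tBHQ -0.81, -0.56 and 0.11. In MMS they were -0.22, 0.80 and 0.55, with helicase activation at 0.98, polymerases at 0.48 and clamp and loader at 0.46. In ETP, ENU and MMS the median of CDC6, CDT1 and GMNN was the value of GMNN, the CDT1 inhibitor. No test between classes was made.

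**Figure D4:**
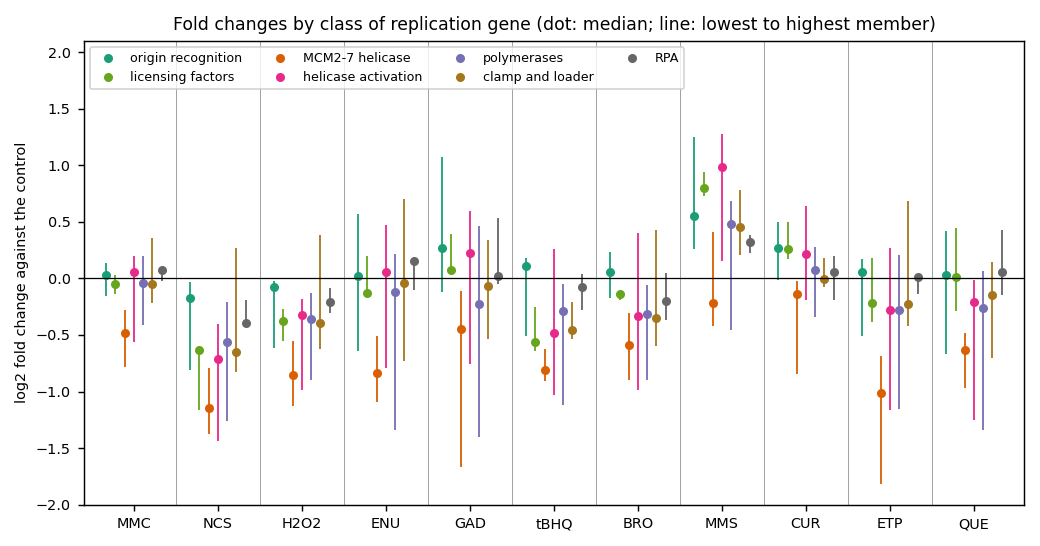
Median (dot) and range (line) of the log2 fold changes of 7 classes of replication gene in each compound; the horizontal line is no change. The ring (orange) has the lowest median of the 7 classes in every compound shown, and in MMS it alone has a median under 0.

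How far each call rested on single libraries was counted by leaving out each of the 11 or 12 libraries of a comparison. All 8 calls of GAD and the 1 of CUR held throughout, as did 9 of 18 in NCS, 1 of 4 in H2O2 (MCM5), 8 of 9 in ENU, 9 of 11 in tBHQ, 6 of 12 in BRO, 16 of 20 in MMS, 4 of 10 in ETP and 4 of 8 in QUE. In NCS the calls of CDT1, MCM3, MCM8, GINS2, CDC7, POLA1, POLA2, CHAF1A and CHAF1B were lost without at least 1 of NCS replicates 2, 3, 4, 5 and 6 and DMSO_pooled replicates 1, 2, 3, 4, 5 and 6, with values from -1.55 to -0.53. The H2O2 calls of MCM2, MCM6 and RFC4 were lost without at least 1 of H2O2 replicates 2, 3, 5 and 6 and DMSO_pooled replicates 1, 2, 3, 4, 5 and 6, with values from -1.36 to -0.54. For tBHQ those of MCM6 and WDHD1 were lost without at least 1 of tBHQ replicates 3, 5 and 6 and DMSO_pooled replicates 1 and 2, with values from -0.78 to -0.55. In BRO the calls of MCM3, MCM6, MCM7, WDHD1, POLE2 and RFC2 were lost without at least 1 of BRO replicates 1, 2, 3 and 5 and BRO_DMSO replicates 1, 4 and 6, with values from -1.07 to -0.49. The MMS calls of CDC6, POLA2, PRIM2 and POLD3 were lost without at least 1 of MMS replicate 1 and MMS_CTL replicate 3, with values from 0.50 to 0.84. For ETP those of MCM2, MCM3, MCM5, CDC45, GINS2 and POLE2 were lost without at least 1 of ETP replicates 3, 4, 5 and 6 and ETP_DMSO replicates 1, 3, 4, 5 and 6, with values from -1.36 to -0.68. In QUE the calls of ORC2, MCM3, MCM5 and POLD1 were lost without at least 1 of QUE replicates 2, 3, 4, 5 and 6 and QUE_DMSO replicates 1, 2, 3, 4, 5 and 6, with values from -0.84 to -0.44.

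The level of the whole set also followed the replicate number. In all 7 groups of the pooled set the mean signal of the 48 genes was highest in replicate 1, and it spanned 7.83 to 8.47 in DMSO_pooled, 6.98 to 8.14 in NCS, 7.33 to 8.31 in H2O2 and 7.43 to 8.19 in tBHQ. The range within NCS was larger than the difference between the NCS and control medians (7.25 and 7.99). Paired by number, 43 of the 48 genes were lower in every NCS pair (against 16.0% of all genes), 35 in every H2O2 pair (against 12.2%) and 15 in every MMC pair (against 7.52%). In the curcumin set replicate 5 was lowest in both groups. MMS_CTL ranged from 7.10 to 7.99 (SD 0.32, n = 6), and MMS from 7.97 to 8.27 (SD 0.11, n = 6). What the number stands for is not given, and its part in the results was not tested beyond the block.

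**Figure D5:**
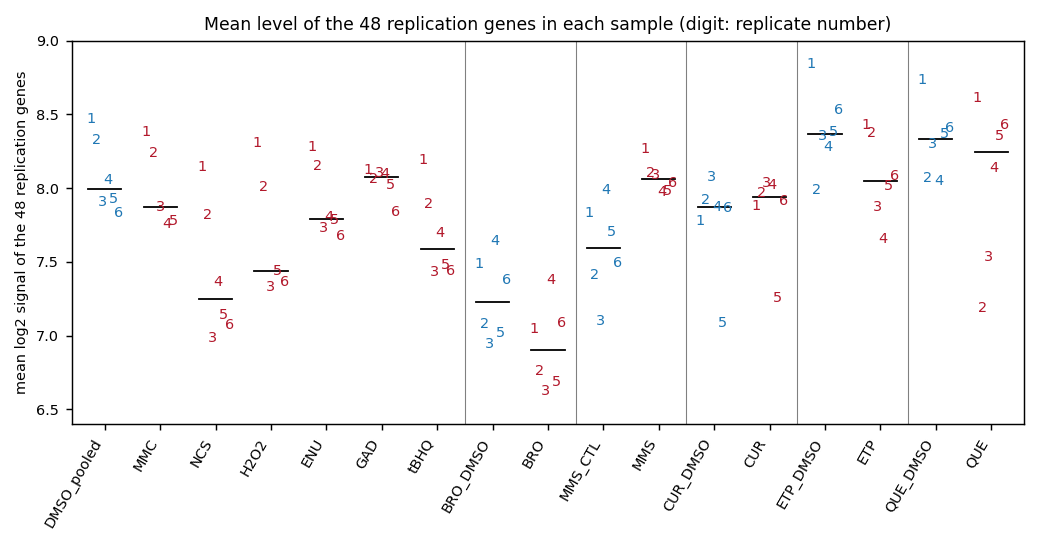
Mean log2 signal of the 48 replication genes in each of 100 samples, drawn as the replicate number (controls blue, compounds red), with a black line at each group's median and grey lines between the 6 sets, whose levels are not comparable with each other. Replicate 1 is the top digit in all 7 groups of the first set, and the 6 MMS samples lie close together at the top of the MMS_CTL range or above it.

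The difference between compounds was tested for 4 pairs, with p-values adjusted over all genes and the 4 pairs. Doses were matched only by the rise in p53. NCS was set against MMC, both used for DNA damage and both measured beside the same control. In NCS, 19 of 48 members were lower than in MMC (39.6%, against 1.22% of all genes), and all 48 differences lay below 0. CDC45 differed by -1.15 ± 0.27 (SE, adjusted p = 6.99e-04), MCM10 by -1.15 ± 0.40 (SE, adjusted p = 0.0265) and CDC6 by -1.02 ± 0.37 (SE, adjusted p = 0.0342), while MCM6 differed by -0.59 (95% interval -1.06 to -0.13) and was not called. Single libraries moved the count, which was 9 without any 1 of MMC replicate 1 and NCS replicate 3, 10 without any 1 of MMC replicate 2 and NCS replicates 5 and 6, 29 without NCS replicate 2, and 34 without NCS replicate 1. ENU and GAD, both at 2 mM, differed in 5 members (10.4%, against 19%). MCM7 was lower in GAD than in ENU by -1.09 ± 0.15 (SE, adjusted p = 4.43e-09) and PCNA by -0.74 ± 0.14 (SE, adjusted p = 2.30e-05). ORC5 was higher in GAD by 1.29 ± 0.16 (SE, adjusted p = 1.04e-10), CDC7 by 0.77 ± 0.24 (SE, adjusted p = 0.0104) and MCM3 by 0.65 ± 0.24 (SE, adjusted p = 0.0350).

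Of the 2 compounds known for oxidative chemistry, tBHQ had 2 members lower than H2O2 (4.17%, against 9.96%): PCNA by -0.92 ± 0.15 (SE, adjusted p = 5.33e-07) and LIG1 by -0.80 ± 0.18 (SE, adjusted p = 2.12e-04). Without H2O2 replicate 1 the count was 4. The ring genes did not pass between them, with MCM6 at 0.51 (95% interval 0.05 to 0.97) and MCM5 at 0.17 (95% interval -0.21 to 0.56). ETP and QUE differed in 2 members (4.17%, against 6.55%): MCM6 was lower in ETP by -0.84 ± 0.31 (SE, adjusted p = 0.0418) and WDHD1 higher by 0.98 ± 0.32 (SE, adjusted p = 0.0174). That count was 1 without any 1 of ETP replicates 1, 5 and 6, ETP_DMSO replicates 5 and 6, QUE replicates 3, 4, 5 and 6 and QUE_DMSO replicate 3, 4 without ETP replicate 2, and 5 without QUE replicate 2, and it was 1 with no filter and 0 with the mean of the probe sets. A comparison of the 2 alkylating agents was added after their values were seen, so it is a description of a contrast already known. MMS was higher than ENU in 12 members (25%, against 7.82% of all genes) and all 48 differences lay above 0, led by ORC1 at 1.48 ± 0.41 (SE, adjusted p = 0.00703) and CDC7 at 1.34 ± 0.33 (SE, adjusted p = 0.00241). The count was 6 without DMSO_pooled replicate 1 and 7 without MMS_CTL replicate 3, and 31 with a block on the replicate number.

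The genes whose 11 log2 fold changes lay nearest to those of MCM6, among 11496, were 3 members and 2 others: MCM5 (mean absolute difference 0.23), MCM3 (0.25), CDCA7 (0.29), WDR76 (0.29) and GINS2 (0.29). Of 35 further replication genes, 33 were tested. They were called lower 5 times in QUE (15.2%, against 6.65% of all genes), 4 in BRO (12.1%, against 4.93%), 4 in tBHQ (12.1%, against 4.44%), 3 in NCS (9.09%, against 0.966%), 3 in GAD (9.09%, against 15%), 2 in ETP (6.06%, against 0.618%) and 2 in ENU (6.06%, against 6.11%). They were called higher 9 times in MMS (27.3%, against 4.46%), 4 in GAD (12.1%, against 11.1%), 1 in tBHQ (3.03%, against 5.39%) and 1 in BRO (3.03%, against 2.46%). The shares in ENU and GAD were thus near or under those of all genes. CDCA7, a partner of the HELLS chromatin remodeller, had the largest fall in GAD (-1.49), tBHQ (-1.19), NCS (-1.21), ETP (-1.19), ENU (-1.18) and BRO (-0.87). UHRF1, which guides maintenance methylation behind the fork, was second in ETP (-0.96), ENU (-0.84) and QUE (-1.15). In QUE the largest fall was that of the RNase H2 subunit RNASEH2C (-1.25). In MMS the largest rises were those of DNA2, a nuclease that cuts long flaps (1.33), and MTBP, a partner in firing origins (1.28).

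Cell cycle genes stood beside these changes as follows. In MMS, where 20 replication genes rose, CDKN1A rose by 1.10, the proliferation marker MKI67 was at 0.16 (adjusted p = 0.555) and the mitotic cyclin CCNB1 at -0.53 (adjusted p = 0.0366). MKI67 was called lower in NCS (-0.91), tBHQ (-0.78), QUE (-1.01) and GAD (-0.90), and at -0.39 (adjusted p = 0.0288) in ENU. It was not called in the other compounds with lower ring genes, at -0.79 (adjusted p = 0.0590) in ETP, -0.47 (adjusted p = 0.0717) in BRO, -0.86 (adjusted p = 0.141) in H2O2 and -0.46 (adjusted p = 0.0209) in CUR, and with the replicate block it was called lower in ETP and H2O2. The repressor E2F8 was lower in GAD (-2.09), tBHQ (-1.38), NCS (-1.29), QUE (-1.22), ETP (-0.94) and BRO (-0.83), whereas E2F1 was called in no compound. The part of a changed share of cycling cells in the replication genes was not tested. The labelled cell type was checked in the controls: 10 of 12 mesenchymal markers were detected in all of them, with VIM at a mean of at least 13.01, THY1 was under 4 in all, the keratins KRT8 and KRT18 were detected, and EPCAM, CDH1, KRT19 and all 10 blood, endothelial and melanocyte markers were under 4.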

How the data were processed

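Total RNA of HT1080 cells was labelled by in vitro transcription and hybridised to Affymetrix HT HG-U133+ PM arrays. The files hold log2 signals per probe set, made by the authors with GCRMA and Partek before they were deposited, per the submitters' processing notes; versions, background settings and normalization batches are not given in the sources used here. Array quantiles fell into 6 sets, which points to separate normalization, and levels were compared within a set only. Nothing was renormalized. The array of ETP_DMSO replicate 2 was deposited along with a repeat (SD of their difference 0.179, next closest pair of that group 0.235), and the 2 were averaged. GCRMA draws low signals towards background, so fold changes of dim genes are understated, and the number of arrays limits the precision.

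Among 54613 probe sets other than array controls, 40914 had 1 gene by the array's annotation, and 41 genes found no match in the GRCh38.p14 gene list. Each of 19774 genes was read from its probe set of highest mean across the arrays. Of the 48 members 23 had 1 probe set and 25 had several; in 48 of 48 cases where a called member had another probe set at a mean of at least 4, that probe set moved in the same direction, and in 75 of 79 with dimmer ones included. Each compound was set against its control by limma 3.58.1 (R 4.3.3, with the data.table package at 1.17.8), fitting these groups alone with moderated variances, and p-values were adjusted by Benjamini-Hochberg over 11496 genes. Calls were made under an adjusted p of 0.05 from 1.5-fold. Pairs of compounds were contrasted in 1 model of all 17 groups. Plots came from Python 3.11.15, matplotlib 3.10.9, pandas 2.3.3 and numpy 2.4.6. Every column of the deposited values was used. The method was tested on simulated data.

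The replicate numbers paired samples in BRO, CUR and the 6 compounds of the pooled set, where every same-numbered pair of deviations from the group means correlated at r over 0.1, the pairing coming from these correlations and not from the labels (r from 0.292 to 0.844 over the genes tested). MMS (-0.134 to 0.316) and ETP (-0.0023 to 0.649) did not meet this. QUE met it over genes (from 0.157) but not over 25479 probe sets (from 0.091). In these 3 the numbers were not taken to pair samples. Calls were made without the block in every compound, also where the numbers paired samples, so they leave that pairing out. The block was fitted in every compound as an alternative only. The members and all lists were chosen with earlier results of these data known. Values are given for a named set of members, for the 3 largest falls and rises called in each compound, for members called higher in any compound or lower in the most, and for the members with extreme medians in each class, others by counts; CDC7, PRIM1, PRIM2, GINS3, ORC2, RFC2, RFC4, RFC5, POLA2, POLD1, POLD2, POLD3, WDHD1, UHRF1, CDCA7 and the cell cycle genes beside them follow the same rule or describe a count of 5 or fewer. The alternatives were no filter or one at 6, the average over a gene's probe sets, an equal median or quantile normalization, 1 fit of all groups, the replicate block, the repeated array left out, and each library left out in turn. Leaving out QUE replicates 2 and 3, leaving out the number 2 libraries of ETP and ETP_DMSO, a block in the pairs of compounds, and the comparison of MMS with ENU were added after seeing the data.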

Additional observations from a re-analysis of the deposited data

Results flagged for a closer look

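Of 206 sets of samples checked, 19 held 1 sample whose distance from the rest was large for the group's range, and chance alone flags about 1 in 20 sets. Most belonged to replicate 5 of the curcumin set, which was the lowest in both of its groups. Its mean over the 48 members was 7.26 in CUR (next lowest sample 7.88) and 7.08 in CUR_DMSO (7.78). In CUR replicate 5 the licensing factors averaged 7.52 (next 8.42), MCM2 to MCM7 7.92 (8.65), helicase activation 6.52 (7.45), polymerases 6.60 (7.17) and clamp and loader 8.40 (8.76). In CUR_DMSO replicate 5 MCM2 to MCM7 averaged 8.14 (8.78), helicase activation 6.27 (7.25), polymerases 6.41 (7.08) and clamp and loader 8.23 (8.73). Single genes stood apart in the same libraries: MCM7 was 7.49 in CUR replicate 5 (next 8.01), and MCM6 was 8.99 in CUR replicate 5 (9.57) and 9.16 in CUR_DMSO replicate 5 (9.74).

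In the other sets, GAD replicate 6 had the lowest member mean (7.84, next 8.02) and the lowest POLA1 (5.26, next 5.71). MMS replicate 1 had the highest mean of the origin recognition genes (8.07, next 7.93), and MMS replicate 4 the lowest MCM6 (8.69, next 9.0). QUE replicate 3 had the lowest WDHD1 (4.01, next 5.25).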

How the results depend on the processing

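Of 742 values of the 38 counts and medians under alternative settings, 660 stayed within 1.5 times the reported count or within 1 SD and 82 moved. Of the 210 medians among them, 13 had the opposite sign to the reported median, in MMC, ENU, GAD, CUR and QUE. All came from leaving out 1 or 2 libraries except the MMC median of 0.0048 with a filter at 6. With the replicate number as a block the lower counts became 3 in MMC, 31 in NCS and 12 in H2O2, the higher count in CUR became 1, and MMS against ENU gave 31; it moved no other count by over 1.5 times, though it raised the lower count in QUE from 8 to 12. One fit of all groups gave 8 lower in H2O2. In BRO the lower count was 7 with the average over a gene's probe sets and 7 with an equal median for each array. In QUE the mean of probe sets gave 1 higher, and leaving out QUE replicates 2 and 3 gave 3 lower and 3 higher. Leaving out the number 2 libraries gave 15 lower in ETP. ETP against QUE gave 1 with no filter and 0 with the mean of probe sets. The cause of these moves was not tested, beyond the fewer samples or added genes each setting brings. Leaving out 1 library at a time, the lower counts ranged from 0 to 2 in MMC, 9 to 33 in NCS, 1 to 10 in H2O2, 9 to 19 in tBHQ, 6 to 16 in BRO, 3 to 10 in ETP and 4 to 13 in QUE, and the higher counts from 1 to 3 in ENU, 2 to 4 in GAD, 0 to 2 in CUR and 0 to 3 in QUE. The pairs ranged from 9 to 34 (NCS against MMC), 2 to 4 (tBHQ against H2O2), 1 to 5 (ETP against QUE) and 6 to 16 (MMS against ENU). Of 528 single gene results, 19 lost a call with the mean of probe sets, 7 with no filter, 6 with an equal median and 6 with quantile normalization, and none reversed.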

Other observations

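Of 33 further replication genes, 9 were called higher in MMS (27.3%, against 4.46% of all genes). Among them, the fork protection pair TIMELESS and TIPIN was higher (log2 fold changes of 0.69 and 0.70), as were the RNase H2 catalytic subunit RNASEH2A (0.81), the clamp unloader ATAD5 (0.85) and DSCC1, a subunit of an alternative clamp loader (0.93). ATAD5 was called lower in NCS (-0.85), BRO (-0.74) and tBHQ (-0.74).

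The cyclin E genes CCNE1 and CCNE2 act at S phase entry. CCNE1 was called higher in GAD (1.05), tBHQ (0.81) and QUE (0.67), where 11.1%, 5.39% and 6.38% of all genes were. CCNE2 was called higher in GAD (0.79) and MMS (0.63), the latter lost with the replicate block. It was called lower, with the block only, in NCS (-1.19), tBHQ (-1.09) and H2O2 (-0.90), and was at -1.23 (adjusted p = 0.234 by limma) in ETP, without a call. The histone chaperone gene ASF1A was called higher in BRO (1.09), tBHQ (1.00) and GAD (0.61), while the CHAF1 genes had no call in those compounds (log2 fold changes from -0.47 to 0.31).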
